A study of Mus musculus with 36 samples.

Results

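Lung tumours driven by EML4-ALK variant 3 were compared with tumours driven by EML4-ALK variant 1 when Setd2 was targeted in both. The comparison takes 18 of the study's 36 mouse lung tumours: the 9 labelled Variant 3 Setd2 and the 9 labelled Variant 1 Setd2, chosen by their group label alone. The other 18 tumours carried the same variants with the guide sgNeo, which leaves Setd2 intact per the study's design text, and they are given side by side. All 4 groups share an EML4-ALK driver and were sorted for EGFP, so no tumour without the fusion enters. Each group holds 3 title codes with 3 tumours each: CE475, CE479 and CE483 for Variant 1 Setd2, and CE450, CE454 and CE456 for Variant 3 Setd2. What a code stands for is left unsaid in the labels, which also give no strain, age, way of starting the tumours or share of cells edited. A code was taken as 1 replicate (n = 3 per group), and every p-value printed is set against the variation among codes.

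EML4-ALK is a fusion of the microtubule-associated protein EML4 with the ALK receptor tyrosine kinase, which EML4 drives to dimerise and so to signal without ligand through RAS-MAPK, PI3K and JAK-STAT3. Variants differ in where EML4 is broken: the variant 1 protein keeps part of the beta-propeller of EML4 next to its coiled coil, and the shorter variant 3 protein lacks that propeller. SETD2 is the histone methyltransferase that trimethylates H3K36 along transcribed genes, and it is a tumour suppressor in lung adenocarcinoma. Alveolar type 2 (AT2) cells, which make surfactant, are a usual cell of origin in such mouse models.

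Levels are CPM, reads of a gene scaled to a common library total, after TMM scaling, and log2 fold changes are Variant 3 minus Variant 1. Tumour libraries held 22.6 to 49.0 M (mega) reads in genes for Variant 1 Setd2 and 34.1 to 105.2 M reads for Variant 3 Setd2, so the Variant 3 libraries were deeper. Thinning all codes to 91.5 M reads left a like count of calls (30 against 26). By Ddx3y above 50 CPM, 1 code in each sgSetd2 group was male. In sgNeo 0 Variant 1 codes and 2 Variant 3 codes were male, so sex was not balanced there. Tumours of a code resembled each other most, with a median Spearman correlation across genes of 0.956, against 0.943 for tumours of another code in the same group and 0.936 between the groups. The first principal component of the 18 tumours took 24.0% of the variance, and none of the first 4 separated the groups.

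The targeted gene was not measurably different between the groups. Setd2 stood at 39.0, 38.7 and 34.5 CPM in the Variant 1 codes and at 33.6, 43.8 and 59.8 CPM in the Variant 3 codes, and the groups overlapped. Means were 37.4 ± 2.52 and 45.7 ± 13.2 CPM (SD, n = 3), with p = 0.5 by a two-sided exact permutation test whose smallest possible p is 0.1. Single tumours, which share codes, ran from 27.4 to 46.4 CPM in Variant 1 and from 28.2 to 81.7 CPM in Variant 3. In sgNeo the Setd2 means were 67.7 ± 12.8 CPM in Variant 1 and 54.6 ± 10.3 CPM in Variant 3 (SD, n = 3), so the code CE456 (59.8 CPM) lay above the Variant 3 sgNeo mean. A guide can leave the transcript in place, so the mRNA level does not measure the edit. Alk stood at 32.1, 30.8 and 26.4 CPM in Variant 1 and at 22, 18.2 and 15.5 CPM in Variant 3, without overlap between codes, as for 16.7% of all genes tested. Single tumours overlapped, from 20.2 to 37.0 CPM in Variant 1 and from 13.2 to 26.6 CPM in Variant 3. The Alk log2 fold change of -0.68 (SE 0.16) did not pass edgeR's quasi-likelihood test (adjusted p = 0.146), and in sgNeo it was -0.65. Eml4 had a log2 fold change of -0.32 (SE 0.13, edgeR adjusted p = 0.455). The gene counts do not separate fusion transcripts from the whole genes.

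Genes that differed between the variants were almost all lower in Variant 3. With edgeR's quasi-likelihood test and Benjamini-Hochberg adjustment at 0.05, 25 of 20009 genes (0.125%) were lower and 1 gene (0.005%), Dnm1, was higher. The 25 had a median log2 fold change of -2.72, and 25 of the 26 called genes changed at least 2-fold and 17 at least 4-fold. Codes of the groups did not overlap for any of the 26 called genes, as for 16.7% of all genes tested, and single tumours did not overlap for 20 of the 26, as for 0.835% of all genes. Genes picked by small p in this contrast tend not to overlap, so these counts describe the calls and are no added evidence. Without adjustment 1940 genes (9.7%) had p under 0.05, and the 2 directions were close to even, with 1037 genes (5.18%) lower and 903 (4.51%) higher. The number of calls depended on single codes: it was 1 without CE450, 2 without CE456, 7 without CE483, 17 without the sgNeo code CE468 and 50 without CE454. It also depended on the tool, since DESeq2 on the same sums called 485 genes, 320 of them lower, with all 26 among them.

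**Figure D1:**
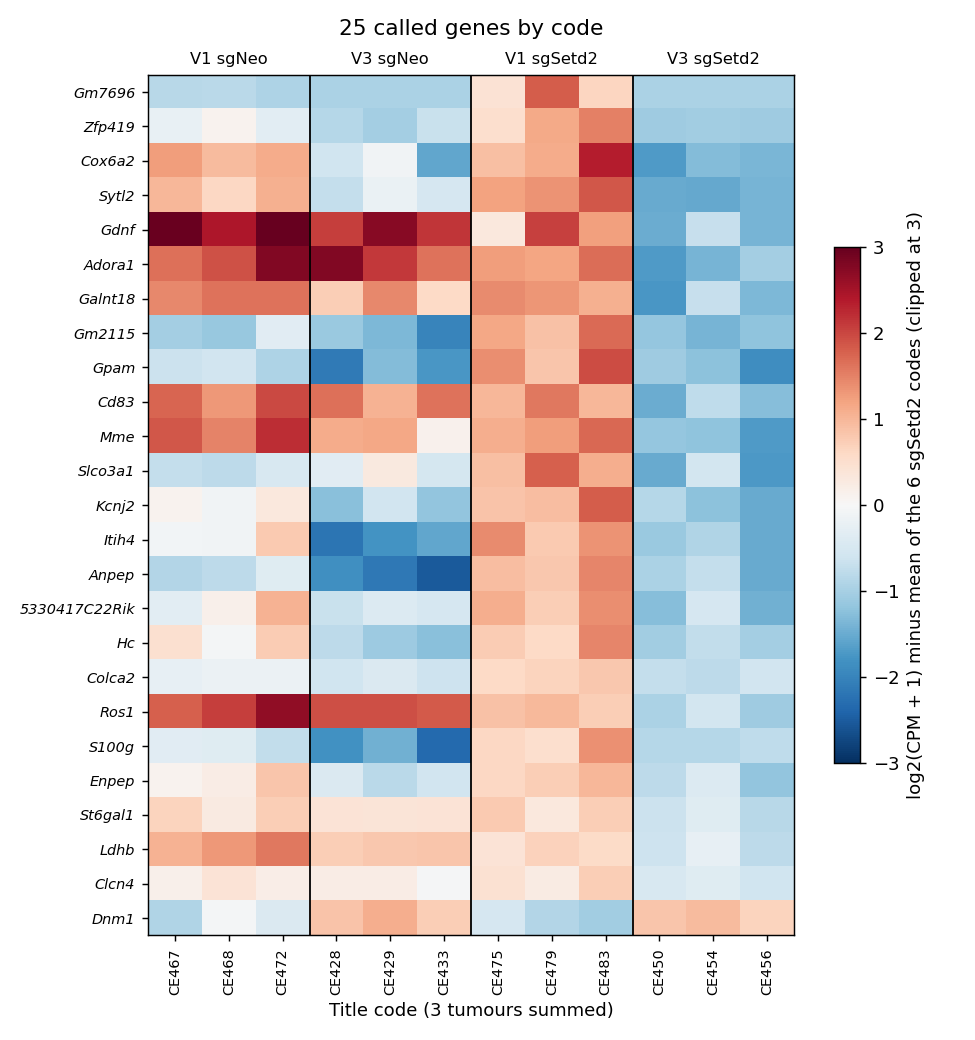
Heat map of 25 of the 26 called genes (rows) in the 12 codes (columns, 3 tumours summed), as log2(CPM + 1) minus the mean of the 6 sgSetd2 codes, with colours clipped at 3. All 25 genes, chosen by this same contrast, split the Variant 1 from the Variant 3 codes under sgSetd2. The sgNeo columns show the same genes in tumours outside this contrast.

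Sytl2 gave the clearest difference. It lies on the plus strand of chr7:90302252-90410719 (GRCm38) and encodes a synaptotagmin-like protein that binds RAB27 and tethers secretory vesicles to the plasma membrane. It stood at 22.1, 24.5 and 35.2 CPM in the Variant 1 codes and at 2.52, 2.47 and 2.83 CPM in the Variant 3 codes. In single tumours it ran from 18.4 to 50.6 CPM (median 23) in Variant 1 and from 0.0629 to 7.63 CPM (median 3.37) in Variant 3, so every Variant 3 tumour lay below every Variant 1 tumour. It fell 10.4-fold (log2 fold change -3.39, SE 0.24, edgeR adjusted p = 0.000297). It was the only called gene that passed without each of the 6 sgSetd2 codes in turn. Over all 48 refits without a code or a tumour, those of sgNeo included, it passed in 47 (largest edgeR adjusted p = 0.091). In sgNeo the means were 17.7 ± 2.91 CPM in Variant 1 and 6.29 ± 1.32 CPM in Variant 3 (SD, n = 3; log2 fold change -1.49, edgeR adjusted p = 0.123). Single sgNeo tumours overlapped widely for Sytl2, from 0.795 to 36.8 CPM in Variant 1 and from 0.075 to 19.3 CPM in Variant 3. Dnm1 (chr2:32308471-32353338, minus strand), the only gene that rose, encodes dynamin 1, a GTPase that pinches endocytic vesicles from the membrane. It stood at 5.06, 3.65 and 3.19 CPM in Variant 1 and at 14.3, 15.5 and 12.7 CPM in Variant 3, and tumours did not overlap (2.55 to 6.58 against 10.3 to 20.2 CPM). Its log2 fold change was 1.84 (SE 0.27, edgeR adjusted p = 0.0282), beside 1.48 in sgNeo.

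Of the called genes 3 encode membrane peptidases, grouped here after their values were seen. Mme (neprilysin), Anpep (aminopeptidase N) and Enpep (glutamyl aminopeptidase) each encode an enzyme that cuts small peptides outside the cell. Mme stood at 87.8, 99.4 and 136.0 CPM in Variant 1 and at 17.8, 17.2 and 11.8 CPM in Variant 3 (log2 fold change -2.78, SE 0.31, edgeR adjusted p = 0.0099). Anpep stood at 64.9, 59.2 and 94.8 CPM against 16.9, 20 and 11.1 CPM (-2.19, SE 0.28, edgeR adjusted p = 0.013). Enpep, named after its values were seen, stood at 373.0, 404.0 and 478.0 CPM against 140.0, 182.0 and 106.0 CPM (-1.56, SE 0.23, edgeR adjusted p = 0.0285). Tumours did not overlap for any of these peptidases: the lowest Variant 1 and highest Variant 3 tumours were at 64.2 and 24.3 CPM for Mme, 38.8 and 33.5 CPM for Anpep, and 307.0 and 193.0 CPM for Enpep. In sgNeo, Mme had means of 153.0 ± 37.4 and 75.5 ± 26.8 CPM and Anpep of 21 ± 4.38 and 6.86 ± 1.78 CPM (SD, n = 3). Single sgNeo tumours overlapped for both genes. Mme ran from 0.0 to 387.0 CPM in Variant 1 and from 0.0 to 229.0 CPM in Variant 3. Anpep ran from 2.59 to 48.0 CPM in Variant 1 and from 0.0232 to 13.6 CPM in Variant 3.

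The start-site regions of these peptidase genes are shown because ALK signals through STAT3, and the letters TTCNNNGAA are the STAT motif. Each runs from 250 bases before to 50 after a RefSeq start (GRCm38.p6), with the STAT letters in capitals: Mme at chr3:63294961-63295260, plus strand (the first of 3 starts listed), Enpep at chr3:129332700-129332999, minus strand, and Anpep at chr7:79848161-79848460, minus strand.
Mme: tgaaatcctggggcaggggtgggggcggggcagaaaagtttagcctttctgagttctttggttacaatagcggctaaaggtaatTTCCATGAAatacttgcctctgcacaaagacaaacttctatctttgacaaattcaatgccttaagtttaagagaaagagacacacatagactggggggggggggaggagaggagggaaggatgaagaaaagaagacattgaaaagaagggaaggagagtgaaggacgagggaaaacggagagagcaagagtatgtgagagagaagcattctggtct
Enpep: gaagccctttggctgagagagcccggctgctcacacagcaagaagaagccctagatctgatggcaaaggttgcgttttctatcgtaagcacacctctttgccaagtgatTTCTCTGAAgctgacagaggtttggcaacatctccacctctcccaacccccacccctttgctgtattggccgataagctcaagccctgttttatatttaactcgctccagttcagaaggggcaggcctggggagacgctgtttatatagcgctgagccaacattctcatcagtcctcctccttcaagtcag
Anpep: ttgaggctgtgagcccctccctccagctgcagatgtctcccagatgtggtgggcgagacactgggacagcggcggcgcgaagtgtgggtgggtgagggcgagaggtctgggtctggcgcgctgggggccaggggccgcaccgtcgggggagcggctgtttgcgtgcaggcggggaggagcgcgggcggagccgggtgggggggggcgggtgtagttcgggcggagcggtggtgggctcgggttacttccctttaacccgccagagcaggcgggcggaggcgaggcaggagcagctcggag
Mme and Enpep each held 1 match and Anpep none. The Mme and Anpep windows lie inside the annotated genes (63241537 to 63386030 and 79821803 to 79861059), so the outermost annotated starts were not searched. Of the 26 called genes 18 had a RefSeq start-site entry, and the STAT letters, searched on both strands, were in 5 of the 18 (27.8%), against 2288 of 27025 such windows in all genes (8.47%). The other letters searched on both strands were the AP-1 motif TGANTCA (1 of 18, 7.93% of all windows), the CRE motif TGACGTCA (1 of 18, 1.88%), the ETS motif CCGGAAG (3 of 18, 9.12%), the FOX motif TGTTTAC (1 of 18, 3.55%) and the TATA letters TATAAA (5 of 18, 14.2%). A match describes the letters and is no evidence that a factor binds there.

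**Figure D2:**
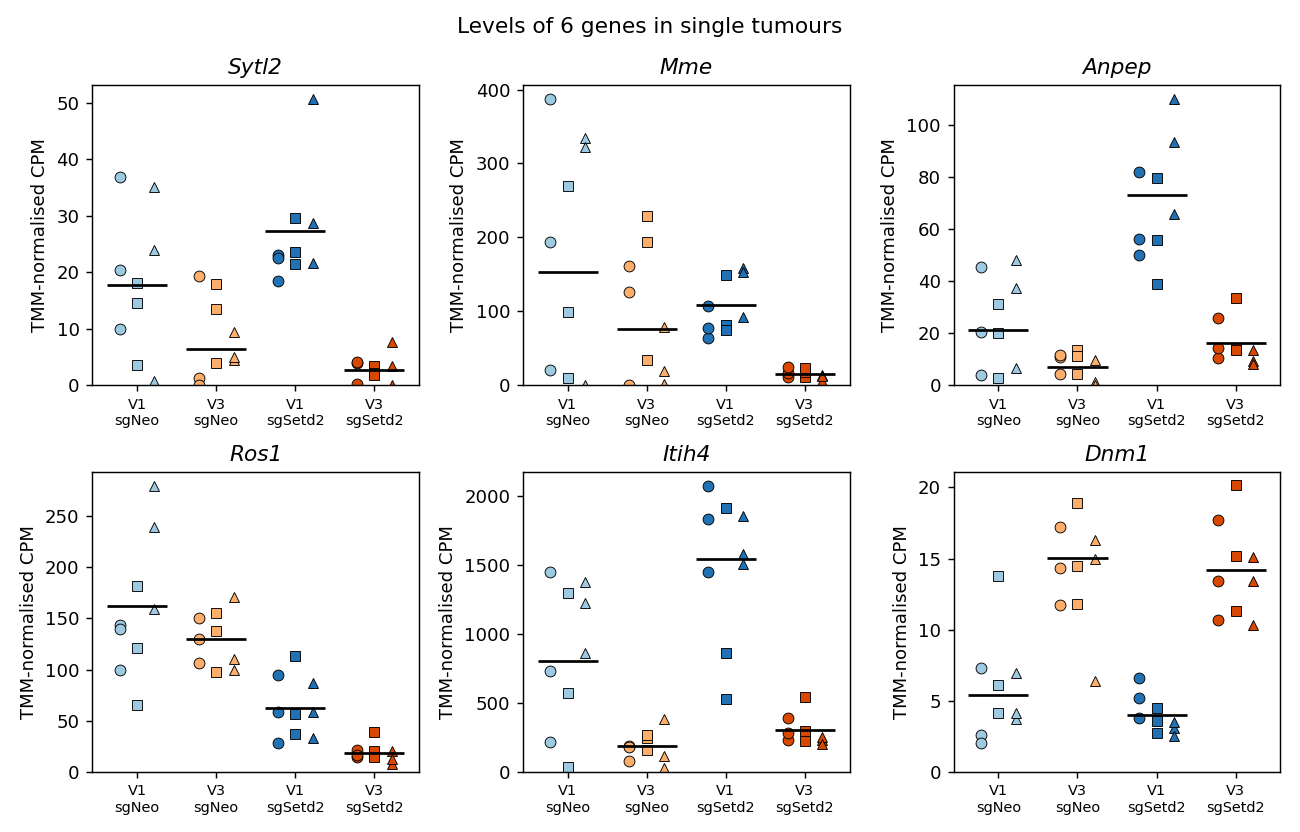
Levels of 6 genes in the single tumours of the 4 groups (y axis, TMM-normalised CPM), with a marker shape for each of the 3 codes of a group and a line at the mean of the codes' levels. Under sgSetd2 the Variant 3 tumours lie below the Variant 1 tumours for Sytl2, Mme and Anpep and above them for Dnm1. For Ros1 the highest Variant 3 tumour (39.0 CPM) lies above the lowest Variant 1 tumour (28.0 CPM).

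Itih4, Hc and Gdnf, each coding for a secreted protein, fell in Variant 3. Itih4, the heavy chain of an inter-alpha-trypsin inhibitor made mainly by the liver, stood at 1783, 1153 and 1703 CPM in Variant 1 and at 312.0, 357.0 and 234.0 CPM in Variant 3 (-2.36, SE 0.29, edgeR adjusted p = 0.0115). In single tumours the groups touched, with 527.0 CPM in 1 CE479 tumour and 541.0 CPM in 1 CE454 tumour. Hc, which encodes complement C5 and is also an AT2 marker in mice, stood at 1542, 1367 and 2506 CPM against 440.0, 542.0 and 449.0 CPM (-1.92, SE 0.26, edgeR adjusted p = 0.0205), and its tumours did not overlap. In sgNeo the log2 fold changes were -2.10 for Itih4 and -1.47 for Hc. Gdnf, the ligand of the RET receptor complex, stood at 4.57, 17.5 and 9.54 CPM against 0.594, 1.78 and 0.717 CPM (-3.35, SE 0.53, edgeR adjusted p = 0.0365). The Gdnf tumours overlapped, from 3.33 to 43.6 CPM in Variant 1 and from 0.0 to 4.84 CPM in Variant 3.

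Ros1, Adora1 and Cd83, each coding for a protein of the cell surface, fell in Variant 3. Ros1 (chr10:52045721-52195244, minus strand) encodes a receptor tyrosine kinase of the same family as ALK. It stood at 63.3, 67.7 and 57.5 CPM in Variant 1 and at 17.2, 22.8 and 15.7 CPM in Variant 3 (-1.76, SE 0.21, edgeR adjusted p = 0.0099). In sgNeo it was at 162.0 ± 52.1 and 130 ± 5.3 CPM (SD, n = 3; log2 fold change -0.32, edgeR adjusted p = 0.632). Adora1, the adenosine A1 receptor, stood at 18.9, 18 and 25.6 CPM against 1.58, 2.16 and 3.15 CPM (-3.18, SE 0.40, edgeR adjusted p = 0.0118), while its sgNeo means were 37.6 ± 16.8 and 38.9 ± 16.3 CPM (log2 fold change 0.05). Cd83, an immunoglobulin-type membrane protein used as a marker of mature dendritic cells, stood at 13.9, 21.4 and 13.9 CPM against 1.66, 3.41 and 2.09 CPM (-2.78, SE 0.32, edgeR adjusted p = 0.0099). Its sgNeo log2 fold change was -0.25.

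Kcnj2, Slco3a1 and Clcn4, which move ions or solutes across membranes, fell as well. Kcnj2, an inward-rectifier potassium channel, stood at 85.2, 90.2 and 166.0 CPM in Variant 1 and at 25.4, 19.4 and 15.7 CPM in Variant 3 (-2.50, SE 0.30, edgeR adjusted p = 0.0099). Slco3a1, an organic anion transporter, stood at 21.3, 40.2 and 24.4 CPM against 3.17, 7.2 and 2.65 CPM (-2.72, SE 0.41, edgeR adjusted p = 0.0285). Slco3a1 had the opposite sign in sgNeo (0.57), and its tumours overlapped, from 6.56 CPM in Variant 1 to 7.85 CPM in Variant 3. Clcn4, a chloride and proton exchanger of endosomes named after its values were seen, was at 108.0 ± 19.3 and 54.4 ± 4.7 CPM (SD, n = 3; -0.99, SE 0.15, edgeR adjusted p = 0.0282), and was the called gene with the smallest change.

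Gpam, Cox6a2 and Ldhb, all metabolic genes, were among those called. Gpam, the mitochondrial acyltransferase that starts glycerolipid synthesis, stood at 54.2, 36.5 and 81.2 CPM in Variant 1 against 9.07, 8.0 and 4.83 CPM (-2.97, SE 0.35, edgeR adjusted p = 0.0099). Cox6a2, a muscle-type subunit of cytochrome c oxidase, stood at 8.33, 9.91 and 24.8 CPM against 0.549, 1.03 and 0.933 CPM (-4.09, SE 0.62, edgeR adjusted p = 0.0285). Ldhb, a lactate dehydrogenase subunit named after its values were seen, was at 163.0 ± 15.6 and 75.4 ± 15.4 CPM (-1.11, edgeR adjusted p = 0.0289).

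Galnt18, of the family that starts O-glycans, and St6gal1, which adds sialic acid to N-glycans, also fell. Galnt18 stood at 14.5, 13.6 and 11.3 CPM in Variant 1 and at 0.735, 2.6 and 1.29 CPM in Variant 3 (-3.08, SE 0.42, edgeR adjusted p = 0.0193). St6gal1 was at 77.3 ± 12.9 and 32.3 ± 5.81 CPM (-1.26, edgeR adjusted p = 0.0209). The remaining called genes were Colca2, the calcium-binding S100g, Zfp419, Gm7696, Gm2115 and 5330417C22Rik. Of these Colca2 alone met the rule for named genes, at 6.11 ± 0.568 and 1.72 ± 0.191 CPM (-1.83, edgeR adjusted p = 0.0258), and S100g was at 291.0 ± 99.9 and 87.7 ± 3.53 CPM (-1.73). St6gal1 and the last 5 of these were named after their values were seen. Zfp419 and Gm7696 are annotated as pseudogenes, so reads shared with near-identical copies make their levels uncertain. Zfp419 had 1096 counts over the Variant 1 codes and 8 over the Variant 3 codes, a normalised ratio of 236.7 (95% counting interval 120.0 to 550.0). Gm7696 had 1023 counts against 0, at least 589-fold lower with a floor of 3 counts over the group.

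Those pseudogenes and Clcn4 lie near each other at the start of chromosome 7, at 9058360 to 9062754 (Zfp419), 8351413 to 8357905 (Gm7696) and 7282309 to 7300851 (Clcn4) on GRCm38. Between Clcn4 and Gm7696 lie 6 tested genes, and between Gm7696 and Zfp419 lies 1. In all, 9 of the 26 called genes (34.6%) lie on chromosome 7, which holds 1584 of the 20009 tested genes (7.92%). The other 6 are Slco3a1, Anpep, Gm2115, Sytl2, Galnt18 and Cox6a2, with 32 to 226 tested genes between neighbours. The median log2 fold change of all tested genes on chromosome 7 was 0.06, so the chromosome as a whole was not lower in Variant 3.

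**Figure D3:**
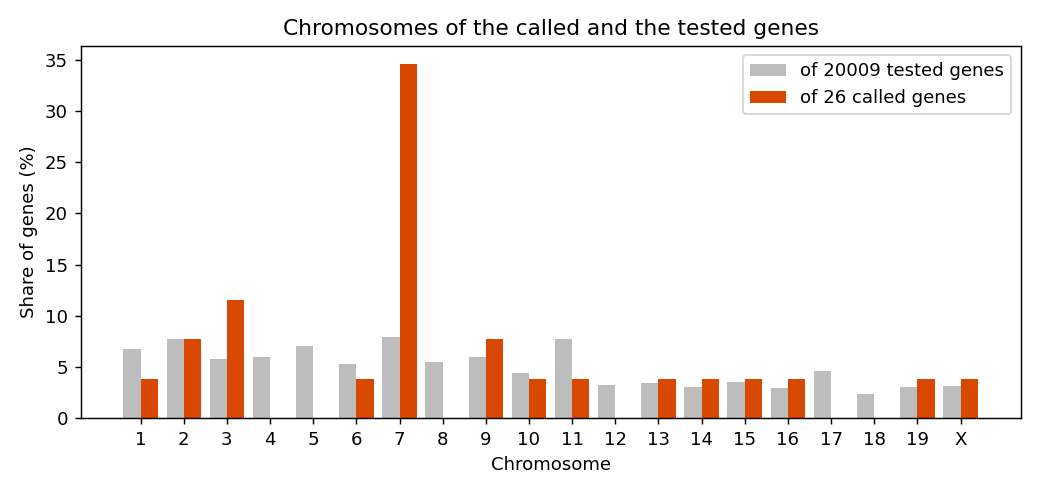
Share of all 20009 tested genes (grey) and of the 26 called genes (orange) on each chromosome, in percent. Chromosome 7 holds 34.6% of the called and 7.92% of the tested genes.

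Higher levels in Variant 3 passed the test for Dnm1 alone, so the 5 other genes of smallest p in that direction are given as values. Prdx4, a peroxiredoxin of the endoplasmic reticulum, stood at 367.0, 262.0 and 256.0 CPM in Variant 1 and at 688.0, 576.0 and 543.0 CPM in Variant 3 (1.03, SE 0.17, edgeR adjusted p = 0.0556). Ebp, the sterol isomerase of cholesterol synthesis, stood at 26.2, 29.2 and 29.2 CPM against 47.7, 53.1 and 45.8 CPM (0.79, SE 0.14, edgeR adjusted p = 0.0612). Bex3 (0.81), Cd164l2 (1.21) and Mpzl1 (1.05) had edgeR adjusted p-values of 0.0695, 0.078 and 0.078. The codes of the groups did not overlap for any of these 5, as for 16.7% of all genes, and genes picked by small p tend not to overlap. Prdx4, Ebp and Bex3 lie on the X chromosome, and each sgSetd2 group holds 1 male code. With sex of the code as a covariate, 24 genes were called, 3 of them higher.

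In sgNeo tumours, which share no sample with this comparison, most of the 26 genes lay on the same side. The sign was the same for 24 of 26 (92.3%), against 60.1% of all genes tested, and the exceptions were Adora1 and Slco3a1. Unadjusted p was under 0.05 in sgNeo for 17 of 26 (65.4%), against 10.4% of all genes. The codes did not overlap in sgNeo for 17 of 26, against 15% of all genes. The fit estimates each gene's dispersion over all 4 groups, so the tests are not wholly independent. None of the 26 had an adjusted p under 0.05 in sgNeo, where edgeR called 1 gene (0.005%), Asns, with 2080 at unadjusted p under 0.05, and DESeq2 called 392. The median log2 fold change of the 25 lower genes was -1.02 in sgNeo. All 26 differences were larger under sgSetd2 than under sgNeo, a comparison that the choice of genes by the sgSetd2 contrast favours.

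**Figure D4:**
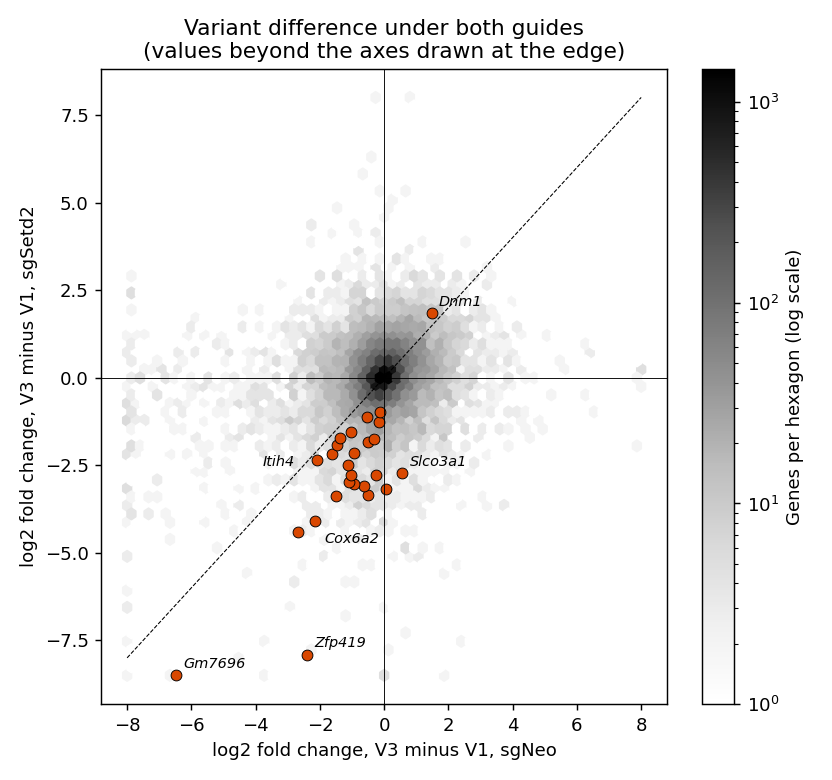
Log2 fold change between variants (Variant 3 minus Variant 1) in sgNeo (x axis) and in sgSetd2 (y axis) for the 20009 tested genes (grey hexagons, log scale of gene number) and the 26 called genes (orange). The dashed line marks equal changes. The called genes lie farther from 0 on the y axis than on the x axis, with Slco3a1 on the other side of 0 under sgNeo (0.57).

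Whether the variant difference itself depended on the guide was tested by the interaction, for which edgeR called 0 of 20009 genes (0.0%), with 1200 (6.0%) at unadjusted p under 0.05, and DESeq2 called 114. The smallest adjusted p, 0.0982, was that of Cfap52, a protein of cilia and flagella. Cfap52 stood at 5.9, 10.4 and 6.36 CPM in Variant 1 Setd2 and at 2.63, 3.48 and 2.26 CPM in Variant 3 Setd2 (log2 fold change -1.44), while its sgNeo log2 fold change was 1.93. The next by p were Adora1, Sytl2, Slco3a1 and Cd83, each with an edgeR adjusted p of 0.385. The interaction estimates were -3.23, -1.89, -3.30 and -2.54 in that order, and these 4 genes had been chosen by the sgSetd2 contrast.

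The gene lists, 57 in number, set these genes among pathways and cell types. Of their 864 tested members only Hc, Ros1 and Gdnf were called (0.347%, against 0.13% of all genes), so lists are described by the median log2 fold change beside that of all genes (0.03, middle range -0.30 to 0.36 from the lower to the upper quartile). The list of ALK, its relatives and ligands had a median of -0.37. MAPK feedback genes, which rise with ERK activity, had a median of 0.00 with no member called; Etv5 had -0.89 (edgeR adjusted p = 0.27) and Dusp6 0.59 (0.521). JAK-STAT3 output had a median of 0.12. EML and microtubule genes had a median of -0.01, with Tubb2a at 0.68 (edgeR adjusted p = 0.177) and Tuba1b at 0.57 (0.28). H3K36 methylation genes had a median of 0.07, with Mecom at -0.57 (0.341) and Psip1 at 0.62 (0.372).

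**Figure D5:**
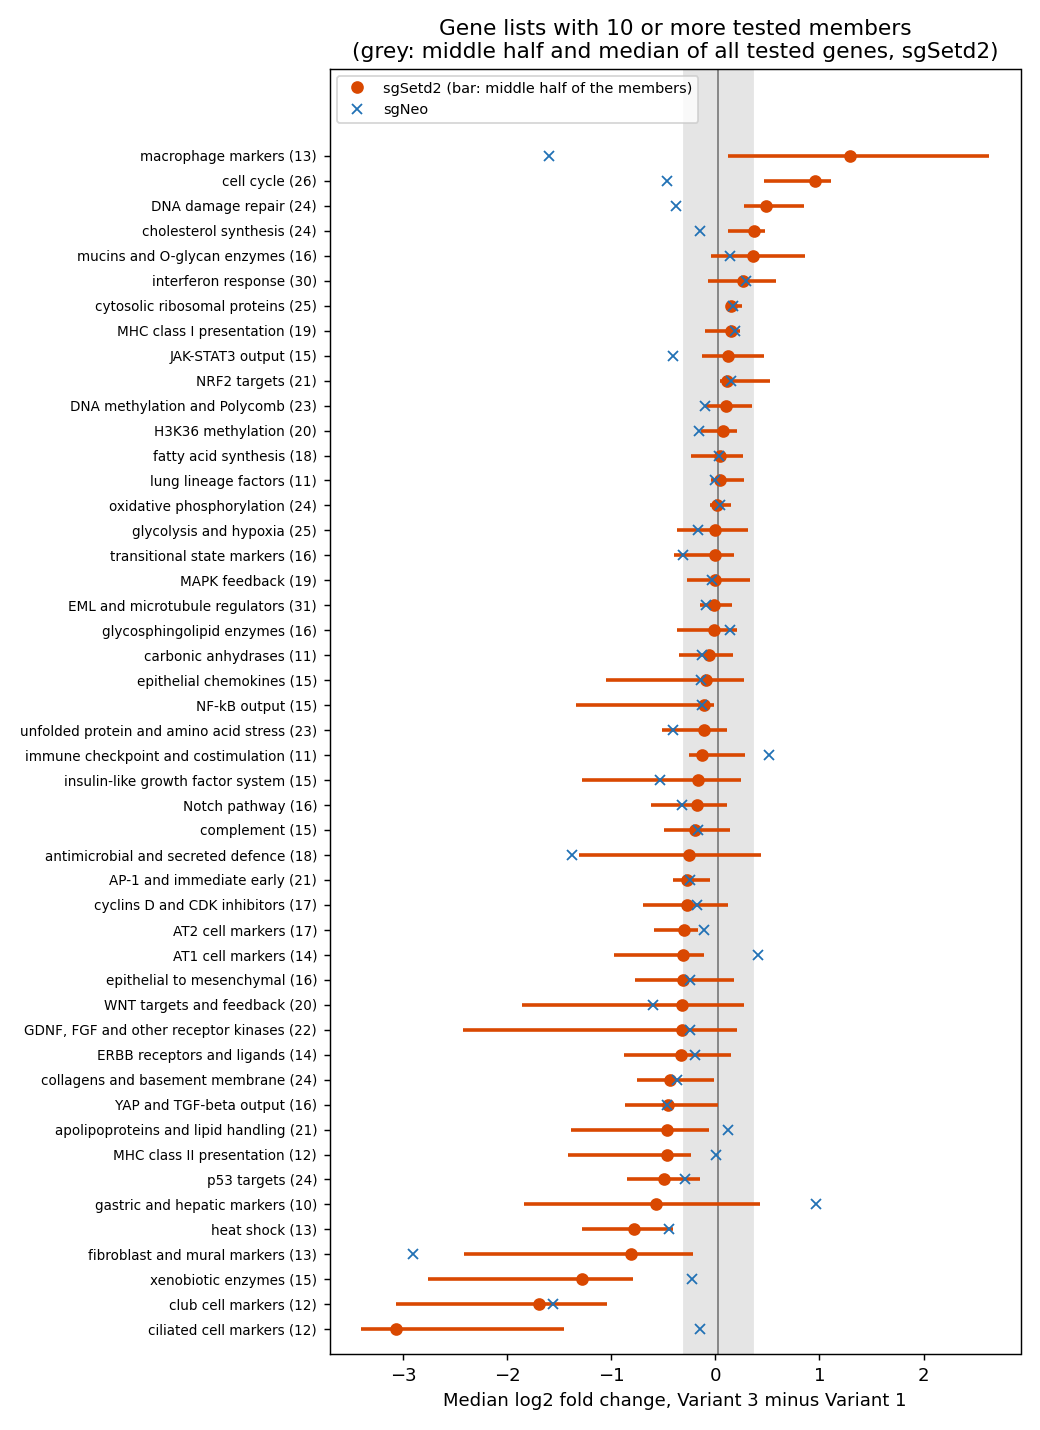
Median log2 fold change (Variant 3 minus Variant 1) of each gene list with 10 or more tested members (number in brackets), in sgSetd2 (orange, bar from the lower to the upper quartile of the members) and in sgNeo (blue crosses), with the same range of all tested genes in grey. Ciliated (-3.07), club (-1.69) and xenobiotic (-1.28) lists lie lowest and macrophage (1.29) and cell cycle (0.96) lists highest under sgSetd2.

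Markers of AT2 cells were high in both groups. The 17 AT2 markers summed to 175784 to 265846 CPM over the Variant 1 codes and 139412 to 196849 CPM over the Variant 3 codes. Their median was -0.30, with Hc called. At unadjusted p under 0.05, 5 of the 17 were lower and 2 higher, against 5.18% and 4.51% of all genes. Club cell markers had a median of -1.69 (sgNeo -1.56), with 4 of 12 lower at unadjusted p under 0.05, against 5.18% of all genes. Their sums overlapped, at 6547 to 11555 CPM over the Variant 1 codes and 8062 to 10370 CPM over the Variant 3 codes. Retnla had the highest level and was the only member above 0 (0.56), with means of 5147 ± 2438 and 7578 ± 1246 CPM (SD, n = 3). Cbr2, a carbonyl reductase of club cells, stood at 1014, 402.0 and 800.0 CPM in Variant 1 and at 2.95, 14.4 and 0.784 CPM in Variant 3 (-6.93, SE 1.17, edgeR adjusted p = 0.0586), and its sgNeo log2 fold change was -3.91. Hp, haptoglobin, was at -0.98 (edgeR adjusted p = 0.133). Ciliated cell markers had a median of -3.07, with all 12 below 0 and 7 of them at unadjusted p under 0.05, against 5.18% of all genes. Without CE479, 10 lay below 0 and 3 were at unadjusted p under 0.05. Tppp3 stood at 12.1, 73.6 and 17.2 CPM against 4.08, 6.82 and 2.02 CPM (-2.99, edgeR adjusted p = 0.128). Foxj1, the factor that drives multiciliated cells, was at 2.97, 24.5 and 4.14 CPM against 0.668, 1.37 and 0.697 CPM. The code CE479 was the highest for both ciliated markers, and without it the medians were -0.98 for ciliated and -0.45 for club markers. In bulk RNA, fewer cells of a type and less RNA per cell cannot be told apart.

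Xenobiotic enzymes, which oxidise and conjugate foreign compounds and are typical of club cells, had a median of -1.28 (sgNeo -0.22). At unadjusted p under 0.05, 8 of 15 were lower, against 5.18% of all genes, and none passed adjustment. Without CE483 that count was 5. The tumours' mean log2(CPM + 1) over the list ran from 4.01 to 4.75 in Variant 1 and from 2.86 to 3.71 in Variant 3, without overlap. The same means overlapped for other lists described here. Club cell markers ran from 5.57 to 7.35 in Variant 1 and from 3.83 to 6.22 in Variant 3. Targets of p53 ran from 4.94 to 5.62 in Variant 1 and from 4.6 to 5.09 in Variant 3. Ephx1, microsomal epoxide hydrolase, stood at 118.0, 103.0 and 121.0 CPM against 38, 58.3 and 44.8 CPM (-1.28, SE 0.26, edgeR adjusted p = 0.11), and Cyp2s1 was at -3.15 (0.128). The median stayed between -2.29 and -1.06 without each code in turn. Cholesterol synthesis genes had a median of 0.37, with 11 of 24 higher at unadjusted p under 0.05, against 4.51% of all genes; without single codes that number ran from 3 (CE454) to 14 (CE456). Tm7sf2, a sterol reductase, was at 7.06, 9.55 and 8.64 CPM against 13.9, 15.2 and 18.1 CPM (0.90, SE 0.22, edgeR adjusted p = 0.169).

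Cell cycle genes lay above 0 for 26 of 26 members, with a median of 0.96 and 11 at unadjusted p under 0.05, against 4.51% of all genes, none past adjustment. Without CE450, or without CE454, 24 members lay above 0. Their sum ran from 230.0 to 314.0 CPM over the Variant 1 codes and from 343.0 to 590.0 CPM over the Variant 3 codes. Single tumours overlapped, with a mean log2(CPM + 1) over the list of 2.5 to 3.61 in Variant 1 and 2.98 to 4.81 in Variant 3. Ccna2, cyclin A2, stood at 3.42, 4.5 and 2.67 CPM against 16.3, 5.21 and 8.29 CPM (1.49, SE 0.38, edgeR adjusted p = 0.194), and Aurka, a mitotic kinase, was at 1.07 (0.278). Without single codes the median ran from 0.56, with 3 members at unadjusted p under 0.05 (CE450), to 1.25, with 15 (CE454). The sgNeo median was -0.46. DNA damage repair genes had a median of 0.49, with Rad51ap1 at 1.63 (edgeR adjusted p = 0.249) and Blm at 1.28 (0.28). Targets of p53 had a median of -0.49, with 10 of 24 lower and 1 higher at unadjusted p under 0.05, against 5.18% and 4.51% of all genes. Plk2, a polo-like kinase, stood at 144.0, 178.0 and 208.0 CPM against 21.5, 76.3 and 33.1 CPM (-2.02, SE 0.38, edgeR adjusted p = 0.0786), and Mdm2, the ubiquitin ligase of p53, was at -0.54 (0.249). When the average level of the 26 cell cycle genes entered the fit as a covariate, 1 gene was called.

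MHC class II genes, which AT2 cells express, had a median of -0.46, with 6 of 12 lower at unadjusted p under 0.05, against 5.18% of all genes. That count was 3 without CE475, CE483 or CE450. H2-Ab1 was at -0.65 (edgeR adjusted p = 0.257) and H2-DMb2 at -2.03 (0.273). Heat shock genes had a median of -0.78, but 0.05 without CE479, in which Hspb1 stood at 462.0 CPM beside 60 and 50 CPM in the other Variant 1 codes and Hsph1 at 388.0 CPM beside 25.7 and 7.47 CPM. One CE479 tumour had the highest mean log2(CPM + 1) of the list, 9.77. Markers of other cells were present at varied levels. Endothelial markers summed to 159.0 to 198.0 CPM in the Variant 1 codes and 124.0 to 201.0 CPM in the Variant 3 codes, with a median of -0.31. Most of each sum was Esam, at 165.0, 146.0 and 190.0 CPM in Variant 1 and 197.0, 173.0 and 119.0 CPM in Variant 3. Pecam1 reached at most 1.33 CPM and Vwf at most 0.616 CPM in these codes. Fibroblast and mural markers summed to 4.42 to 130 CPM and 22 to 86.9 CPM, and their median of -0.81 ran from -4.72 without CE454 to 1.16 without CE479. Macrophage markers, 13 of 17 tested, summed to 13.6 to 19.8 CPM in the Variant 1 codes and 12.4 to 84.5 CPM in the Variant 3 codes. Most of the highest sum came from Lyz1, at 66.8 CPM in CE454 against 3.92 and 2.36 CPM in CE450 and CE456. The median of the list, 1.29, was -0.24 without CE454. Among the defining macrophage markers Siglecf had 0 counts in all 18 tumours. C1qb stood at 0.0 CPM in the Variant 1 codes and between 0.0371 and 0.221 CPM in the Variant 3 codes, and in the latter Mrc1 stood between 1.63 and 2.08 CPM. These 2 were the only members at unadjusted p under 0.05 in edgeR, where 4.51% of all genes were higher. Of the 13 tested, 10 lay above 0 and 3 below: Csf1r (-0.32), Tyrobp (-0.49) and Itgam (-0.76). With the macrophage list as a covariate 7 genes were called. T and NK cell markers summed to at most 1.76 CPM in any code, with Cd2, Nkg7 and Gzmb at 0 counts.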

How the data were processed

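RNA from EGFP-positive neoplastic cells was isolated with a PicoPure kit and made into libraries with a SMART-Seq mRNA kit, per the labels' protocols. The authors deposited raw read counts per gene for 36 tumours. Reads were aligned with STAR 2.5.3a, per the submitters' processing notes, which also name R 4.2 and DESeq2 1.38.3. The sources used here do not name the counting tool, its strand setting, the build or the annotation, so overlapping and antisense genes are uncertain. Of 49585 gene IDs, 49326 took symbols and coordinates from GENCODE mouse release 21 (GRCm38).

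Summed counts of each code's 3 tumours entered 1 model of all 12 codes (edgeR 4.0.16 under R 4.3.3, with TMM scaling, filterByExpr, robust glmQLFit, glmQLFTest and Benjamini-Hochberg adjustment over 20009 genes). Each SE is the absolute log2 fold change over the square root of F. The scripts were tested on simulated data with 200 changed genes. There edgeR found 37% of 2-fold and 78% of 4-fold changes, with 5 false calls. DESeq2 found 62% and 91%, with 65 false calls. Intervals and floors cover counting error only. The labels give no sequencing batch. Where codes are not separate animals, the spread between them may be technical.

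Named genes were Setd2, Eml4, Alk, the 15 largest called changes per direction with a mean of at least 5 CPM, non-overlapping codes and no predicted name, list members that passed (or the 2 of smallest p), and, where few passed, the 5 of smallest p. One gene that the rule selects is not reported here. The groups, genes and lists were chosen with earlier results of these data known. Results were recomputed with RLE or upper-quartile scaling, with no or a stricter filter, with DESeq2 1.42.0, edgeR on tumours, limma 3.58.1, a minimum fold change, thinning, covariates, only the groups compared, and leaving out each code and tumour.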

Additional observations from a re-analysis of the deposited data

Results flagged for a closer look

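Among 68 sets of 9 tumours (each named gene in each sgSetd2 group), 8 held a tumour whose gap to its nearest neighbour took more of the set's range than Dixon's 95% critical value allows, which chance gives in about 1 set in 20. In Variant 1 Setd2, Sytl2 was 50.6 CPM in a CE483 tumour (next 29.5), Slco3a1 was 99.6 CPM in a CE479 tumour (next 37.5), and Ebp was 21.8 CPM in a CE475 tumour (next 27.6). A further CE479 tumour was highest for both Cd83 (31.8 CPM, next 18.4) and Gdnf (43.6 CPM, next 12.4). In Variant 3 Setd2, 1 CE454 tumour was highest for both Ros1 (39.0 CPM, next 21.1) and Gdnf (4.84 CPM, next 2.42), and Gm2115 was 6.85 CPM in a CE456 tumour (next 2.84).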

How the results depend on the processing

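The sgSetd2 count of 26 was 26 with RLE, 31 with upper-quartile scaling, 30 after thinning and 24 with sex as a covariate. It was 44 with no filter, 79 with a stricter filter, 485 with DESeq2, 256 with limma voom with codes as blocks and 51 with limma on code means. It was 479 with edgeR on tumours, a fit that takes tumours of the same code as separate replicates. It was 2 with a minimum log2 fold change of 1, 7 with the macrophage and 1 with the cell cycle covariate, and 9 with only the groups compared. Without single codes it ran from 1 to 50, and without single tumours from 3 (a CE433 tumour) to 37. The sgNeo count of 1 was 4 with no filter, 2 with a stricter filter, 392 with DESeq2, 140 with edgeR on tumours, 22 with limma voom, 3 with the macrophage covariate and 0 with a minimum fold change, with sex or with only the groups compared; leaving out codes or tumours gave 0 to 5. The interaction count of 0 was 1 with no filter, with a stricter filter and with the macrophage covariate, 114 with DESeq2, 8 with edgeR on tumours and 2 with limma voom, and 0 to 1 without single codes or tumours. The Setd2 difference of 8.37 CPM ran from 1.32 (without CE456) to 14.5 CPM (without CE450). Named genes kept their direction in 2106 of 2106 refits: 1680 kept their side of the threshold, 376 lost the call and 50 gained one. List medians moved by less than 1 SD between codes in 3326 of 3520 refits. Causes were not tested. With 3 codes per group, a gene that missed the threshold is not shown to be alike in the variants. No paired analysis was possible because the codes, which are the units tested, carry no number that recurs in another group.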
